A study of Mus musculus with 13 samples.

Results

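Pan-macrophage genes, the macrophage growth factor gene *Csf1* and the complement gene *C1qa* were examined in parametrial white adipose tissue (pmWAT), the visceral fat beside the uterus of the mouse. The 10 genes are *Adgre1*, *Cd68*, *Csf1r*, *Csf1*, *Fcgr1*, *Mertk*, *Itgam*, *Cd14*, *Lyz2* and *C1qa*. They were chosen by name, as genes used across macrophages and monocytes, and each matched 1 of the 33618 Ensembl genes in the count table. All 10 passed the filter on low counts, as did 16753 genes in all.

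Macrophages are the phagocytes resident in adipose tissue, where they clear dead adipocytes, lipid and debris. Their survival depends on the receptor CSF1R, which binds CSF1 and IL-34, and they take up cells and particles through Fc receptors, complement receptors and receptors for dying cells. C1q, the recognition molecule of the classical complement pathway, is made mostly by macrophages and is built from A, B and C chains.

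Whole pmWAT was taken 2 weeks posttamoxifen from 7 mice labelled fl/fl and 6 labelled iADKO, with 1 mRNA library per mouse. Both groups carried *Lmna* alleles flanked by loxP sites, and all mice received tamoxifen at 50 mg/kg on 5 days in a row from 12 to 14 weeks of age. The iADKO mice also carried *Adipoq*-CreERT2, which is active in adipocytes, so that macrophages are not the cells in which the deletion is induced. The fl/fl mice carried no Cre, so that effects of Cre and of the deletion cannot be told apart. Between 18854223 and 19776491 reads per library were counted on genes.

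*Lmna*, the deleted gene, had between 74.7 and 98.5 CPM (its share of the counts of a library, scaled by the TMM method) in the 7 libraries labelled fl/fl, with a median of 83.5. It had between 80.1 and 109 CPM in the 6 libraries labelled iADKO, with a median of 96.8. The groups overlapped, and the iADKO label did not go with less *Lmna* RNA (log2 fold change 0.19 ± 0.079 SE, adjusted p = 0.0785 by edgeR's quasi-likelihood test with Benjamini-Hochberg adjustment). By the same test *Lmna* passed as higher without fl/fl replicate 1 (adjusted p = 0.0411) or without iADKO replicate 6 (0.0208). It also passed without both fl/fl replicate 5 and iADKO replicate 6 (0.0344), and with scaling by library size alone (log2 fold change 0.40, adjusted p = 0.00101). The gene-level counts include exons outside the deleted part and RNA from cells other than adipocytes, so they do not measure the deletion itself. Directions below are those of the libraries labelled iADKO relative to those labelled fl/fl.

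Of the 10 genes, 5 were higher in the libraries labelled iADKO, namely *Adgre1*, *Cd68*, *Csf1r*, *Fcgr1* and *C1qa*. None of the 10 was lower, and *Csf1*, *Mertk*, *Itgam*, *Cd14* and *Lyz2* did not pass the test. Of all 16753 genes tested, 14.1% were higher and 16.3% lower by the same test. The median log2 fold change of the 10 genes was 0.62, beside 0.033 over all genes tested. In bulk tissue, changes in macrophage number, in the RNA each macrophage holds and in the RNA of other cells cannot be told apart.

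Single libraries stood apart. The library labelled fl/fl replicate 5 had the highest value of its group in 7 of the 10 genes, fl/fl replicate 7 in 2 and fl/fl replicate 4 in 1. The library labelled iADKO replicate 6 had the lowest value of its group in all 10. The groups overlapped in each of the 10 genes, and 0 of 10 had every library labelled iADKO above every library labelled fl/fl, as 2.71% of all genes tested did. Without fl/fl replicate 5 and iADKO replicate 6, 9 of the 10 genes were higher, all but *Cd14*, as were 19.6% of the genes tested in that fit, and the median log2 fold change of the 10 was 0.84. These libraries lie toward the other group, and were left out with earlier results of these data known, so their removal widens the difference by construction. Scaling by library size alone, which moved the median log2 fold change of all genes from 0.033 to 0.24, also called 9 of the 10 higher, all but *Cd14*, but it called 44.2% of all genes tested higher.

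The library names fall into 4 series of numbers, of which 2 hold both labels, while the labels give 1 batch for all 13 libraries. With the series as a block, 0 of the 10 genes passed edgeR's quasi-likelihood test after adjustment, 5 had an unadjusted p under 0.05, and the median log2 fold change was 0.64. In that fit 4.68% of all genes tested were higher, and 0 of 10 is near that share. The 5 genes named above then had adjusted p between 0.0512 and 0.153. Within the series of 3 fl/fl and 2 iADKO libraries the log2 differences of the 10 genes were between 0.15 and 1.53, with a median of 1.02. Within the series of 2 and 2 libraries, which holds both fl/fl replicate 5 and iADKO replicate 6, they were between -0.18 and 0.65, with a median of 0.21.

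**Figure D1:**
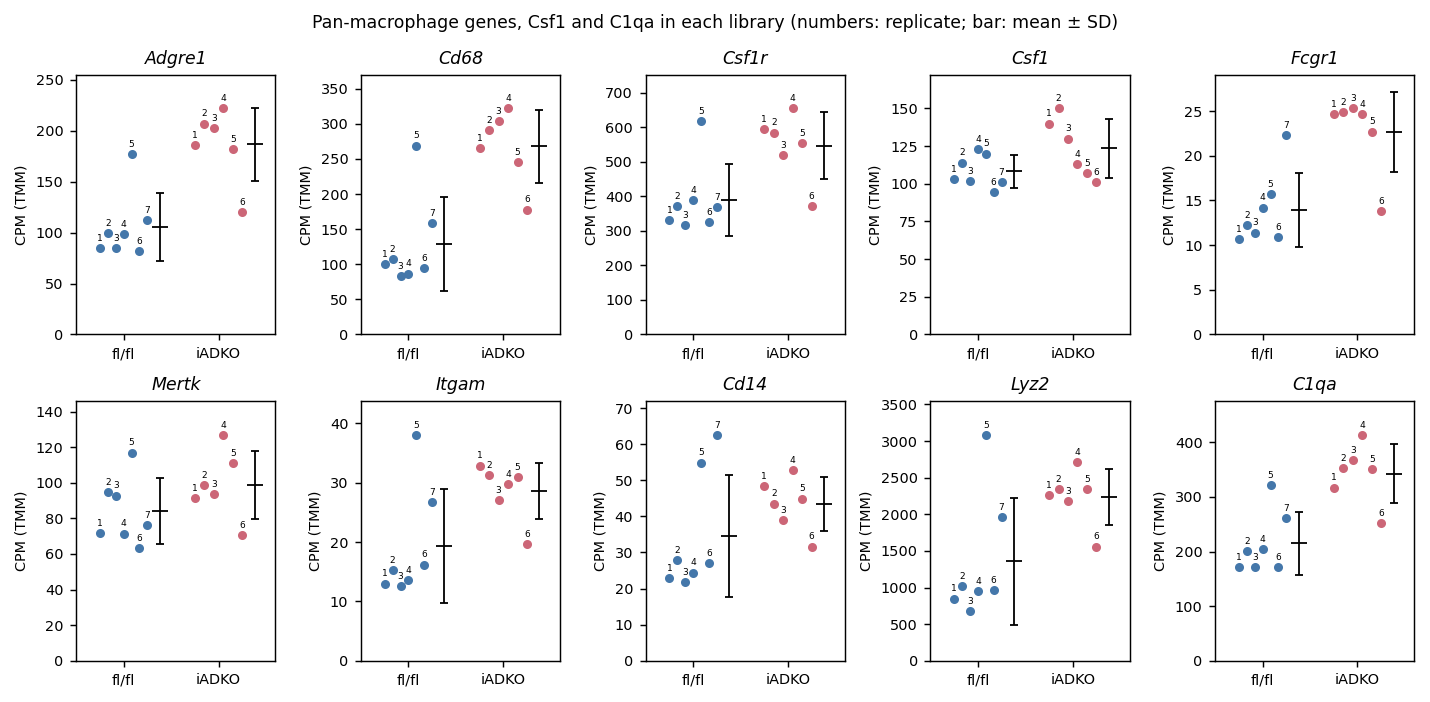
Expression of the 10 genes in each library, in TMM-scaled CPM on linear axes from 0, with fl/fl in blue (n = 7), iADKO in red (n = 6), replicate numbers beside the points and bars at the mean ± SD. The point of fl/fl replicate 5 is the highest of its group in 7 genes, and that of iADKO replicate 6 is the lowest of its group in all 10.

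*Adgre1* encodes F4/80, the adhesion receptor most used to mark mouse macrophages, and lies at chr17:57665573-57790527 (GRCm39, plus strand). It had 82.2 CPM in the lowest library labelled fl/fl, a median of 98.7 and 177 in the highest. In the libraries labelled iADKO it had 120, 194 and 222 CPM. Fl/fl replicate 5 was the only fl/fl library above any iADKO library, and 5 of the 6 iADKO libraries lay above all fl/fl libraries. *Adgre1* rose 1.77-fold (log2 fold change 0.82 ± 0.18 SE, adjusted p = 0.00563 by edgeR's quasi-likelihood test).

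*Cd68*, a glycoprotein of lysosomes and endosomes, lies at chr11:69555037-69557067 (GRCm39, minus strand). Its lowest, median and highest values were 83.1, 100 and 269 CPM in the libraries labelled fl/fl, and 178, 279 and 322 CPM in those labelled iADKO. Again 6 of the 7 fl/fl libraries lay below every iADKO library, and fl/fl replicate 5 lay among the iADKO libraries. *Cd68* had the largest fold change of the 10 genes, 2.08-fold (log2 fold change 1.06 ± 0.27 SE, adjusted p = 0.0118 by edgeR's test). Both genes kept their calls with each library left out in turn.

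*Csf1r*, the receptor tyrosine kinase on which macrophages depend, lies at chr18:61229714-61266535 (GRCm39, plus strand). It had 316, 370 and 618 CPM (lowest, median and highest) in the libraries labelled fl/fl and 371, 570 and 655 CPM in those labelled iADKO. Fl/fl replicate 5 lay above 5 of the 6 iADKO libraries, and iADKO replicate 6 lay within the range of the other fl/fl libraries. *Csf1r* rose 1.4-fold (log2 fold change 0.49 ± 0.16 SE, adjusted p = 0.0331 by edgeR's test). This call was the least stable of the 5, since it passed in only 2 of the 13 fits that left out 1 library, those without fl/fl replicate 5 (adjusted p = 0.00066) or iADKO replicate 6 (0.00876), and the others reached up to 0.0762. It was also lost when genes with few counts were kept in the fit (adjusted p = 0.0799). The gene *Hmgxb3* overlaps *Csf1r* on the other strand. The libraries are described as strand-specific, but the strand setting of the counting is not given in the sources used here. Reads of the overlap therefore cannot be assigned. *Hmgxb3* had 8844 counts over all 13 libraries, while *Csf1r* had between 5466 and 13655 in each library.

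*Csf1*, the ligand made by stromal and other cells, lies at chr3:107648364-107667806 (GRCm39, minus strand). It had 94.4, 103 and 123 CPM in the libraries labelled fl/fl and 101, 122 and 150 CPM in those labelled iADKO. The 3 highest values were those of iADKO replicates 1, 2 and 3, while the other iADKO libraries lay within the fl/fl range. The difference did not pass the test (log2 fold change 0.19 ± 0.10 SE, adjusted p = 0.139 by edgeR's test). Here fl/fl replicate 4, not replicate 5, was the highest of its group.

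*Il34*, the other ligand of the same receptor, was lower in the libraries labelled iADKO. It had 22.3, 30.1 and 37.0 CPM in the libraries labelled fl/fl and 17.1, 20.5 and 22.9 CPM in those labelled iADKO, and 5 of the 6 iADKO libraries lay below all fl/fl libraries. Its level was 0.692 times that of fl/fl (log2 fold change -0.53 ± 0.11 SE, adjusted p = 0.00372 by edgeR's test), and passed in all 13 fits with 1 library left out and in all 9 other fits, although its log2 fold change was -0.32 when scaled by library size alone and -0.38 by limma on the rlog values. The log2 ratio of *Il34* to *Csf1* differed between the labels, from -1.93 ± 0.32 (SD, n = 7) to -2.63 ± 0.19 (SD, n = 6), with an adjusted p of 0.00932 over 4 ratios by an exact two-sided permutation test. The log2 ratio of *Csf1* to *Csf1r* was -1.82 ± 0.26 (SD, n = 7) and -2.14 ± 0.26 (SD, n = 6), a difference that did not pass the same exact permutation test (adjusted p = 0.107), although it did without fl/fl replicate 5 (-0.41, adjusted p = 0.00866).

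Of the 8 colony-stimulating factors and receptors listed, 6 could be tested, 3 were higher, 1 was lower, and their median log2 fold change was 0.46. *Csf2ra*, the alpha chain of the GM-CSF receptor, rose by a log2 fold change of 0.75 (adjusted p = 0.00297, edgeR), and *Csf2rb*, its shared beta chain, by 0.42 (adjusted p = 0.0184, edgeR). *Csf3r*, the G-CSF receptor of neutrophils, had a log2 fold change of 0.70 that did not pass (adjusted p = 0.13, edgeR), but did without fl/fl replicate 5 (1.06, adjusted p = 0.00417). *Csf2* and *Csf3*, which encode GM-CSF and G-CSF, did not pass the filter, with at most 8 and 27 counts in a library.

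*C1qa* lies at chr4:136623223-136626161 (GRCm39, minus strand), beside *C1qc* and *C1qb* on the same strand. It had 171, 201 and 322 CPM in the libraries labelled fl/fl and 252, 352 and 414 CPM in those labelled iADKO. Fl/fl replicates 5 and 7 lay above iADKO replicate 6, and 4 of the 6 iADKO libraries lay above all fl/fl libraries. *C1qa* rose 1.59-fold (log2 fold change 0.67 ± 0.16 SE, adjusted p = 0.00661 by edgeR's test), and kept its call with each library left out in turn.

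The other chains followed. *C1qb*, with medians of 222 and 456 CPM, rose by a log2 fold change of 0.76 ± 0.19 SE (adjusted p = 0.0107, edgeR), and *C1qc*, with medians of 209 and 389 CPM, by 0.69 ± 0.17 SE (adjusted p = 0.00837, edgeR), so that 3 of 3 chains were higher. With the number series as a block these calls were lost by edgeR's test (adjusted p = 0.0547 for *C1qa*, 0.0575 for *C1qb* and 0.0507 for *C1qc*), with log2 fold changes between 0.64 and 0.80. The log2 ratio of *C1qa* to the mean of *C1qb* and *C1qc* was -0.23 ± 0.08 (SD, n = 7) and -0.29 ± 0.061 (SD, n = 6). The difference of -0.066 ± 0.039 (SE) did not pass the exact two-sided permutation test (adjusted p = 0.17). After the mean of each label was subtracted, log2 CPM of *C1qa* had a Pearson r of 0.98 with *C1qb* and 0.971 with *C1qc* over the 13 libraries (Spearman's rho 0.973 and 0.94), and r was 0.958 and 0.942 without fl/fl replicate 5 and iADKO replicate 6. The summed level of the 3 chains was 564, 644 and 1116 CPM (lowest, median and highest) in fl/fl and 852, 1205 and 1471 CPM in iADKO, with *C1qb* the most abundant in CPM.

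**Figure D2:**
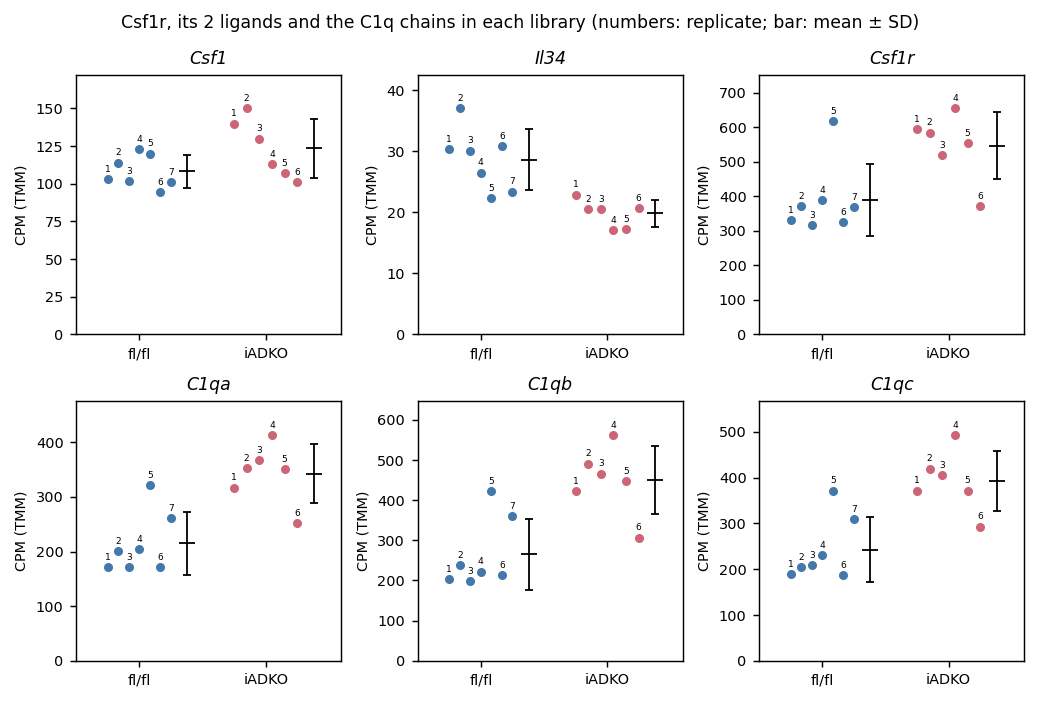
*Csf1r* with its ligands *Csf1* and *Il34*, and the C1q chains, in each library, in TMM-scaled CPM on linear axes from 0, with fl/fl in blue (n = 7), iADKO in red (n = 6) and bars at the mean ± SD. *Il34* is lower in 5 of the 6 libraries labelled iADKO than in every library labelled fl/fl, while in the 3 C1q chains iADKO replicate 6 is the lowest of its group and fl/fl replicate 5 the highest of its own.

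*Fcgr1* encodes the high-affinity receptor for IgG, CD64, and lies at chr3:96190225-96201338 (GRCm39, minus strand). It was low, with 10.7, 12.2 and 22.3 CPM in the libraries labelled fl/fl and 13.8, 24.7 and 25.3 CPM in those labelled iADKO. Here fl/fl replicate 7 was the highest of its group, and the 5 iADKO libraries other than replicate 6 lay above all fl/fl libraries within a narrow range. *Fcgr1* rose 1.63-fold (log2 fold change 0.70 ± 0.18 SE, adjusted p = 0.0112 by edgeR's test).

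Of the 5 Fc gamma receptor genes listed, 4 were higher and none was lower, with a median log2 fold change of 0.70. The lowest adjusted p was that of *Fcgr4*, an activating receptor of monocytes and macrophages (log2 fold change 0.87, adjusted p = 0.0097, edgeR). *Fcer1g*, the signalling chain that activating Fc receptors share, rose by 0.79 (adjusted p = 0.0155, edgeR), and *Fcgr3* by 0.65 (adjusted p = 0.047, edgeR). *Fcgr2b*, the inhibitory receptor, had a log2 fold change of 0.48 that did not pass (adjusted p = 0.0989, edgeR), but did without fl/fl replicate 5 (0.67, adjusted p = 0.00629). The call of *Fcgr3* was lost in 10 of the 13 fits that left out 1 library, all but those without fl/fl replicate 5 or 7 or iADKO replicate 6, with adjusted p up to 0.105.

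*Itgam*, the alpha chain of complement receptor 3 (CD11b), lies at chr7:127661808-127717753 (GRCm39, plus strand). It had 12.6, 15.3 and 38.1 CPM in the libraries labelled fl/fl and 19.7, 30.4 and 32.9 CPM in those labelled iADKO. The highest of all 13 values was that of fl/fl replicate 5, and the other fl/fl libraries except replicate 7 lay below every iADKO library. The log2 fold change of 0.56 ± 0.26 SE did not pass (adjusted p = 0.114 by edgeR's test), but did without fl/fl replicate 5 (0.82, adjusted p = 0.00355). Of the 5 beta-2 integrin genes listed, 4 were tested and 2 were higher, with a median log2 fold change of 0.76. These were *Itgax*, which encodes CD11c (1.01, adjusted p = 0.0429, edgeR), and *Itgb2*, the beta chain that pairs with each alpha chain (0.97, adjusted p = 0.0292, edgeR). With 1 library left out these calls were lost in 10 and 8 of 13 fits, with adjusted p up to 0.081 and 0.0591, and held without fl/fl replicate 5 (1.39 and 1.29). *Itgal* had 0.44 (adjusted p = 0.0629, edgeR) and passed without fl/fl replicate 5 (0.61, 0.000889) or iADKO replicate 6, and *Itgad*, with at most 18 counts in a library, did not pass the filter.

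*Mertk*, a receptor tyrosine kinase that binds dying cells through bridging proteins, lies at chr2:128540729-128645080 (GRCm39, plus strand). It had 63.4, 76.4 and 117 CPM in the libraries labelled fl/fl and 70.7, 96.2 and 127 CPM in those labelled iADKO. The groups lay almost wholly over each other, with 1 iADKO library above all fl/fl libraries and 1 fl/fl library below all iADKO libraries. The log2 fold change of 0.23 ± 0.15 SE did not pass (adjusted p = 0.254 by edgeR's test).

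Of the 14 genes listed for the TAM receptors and efferocytosis, the uptake of dying cells, 7 were higher and none was lower, with a median log2 fold change of 0.25. The lowest adjusted p was that of *Stab2*, a scavenger receptor with few counts (log2 fold change 1.30, adjusted p = 0.0069, edgeR), followed by *Dock2* (0.84, adjusted p = 0.0071, edgeR) and *Axl* (0.32, adjusted p = 0.0128, edgeR). DOCK2 activates the GTPase RAC2 in leukocytes, and AXL is a TAM receptor related to MERTK. *Rac2* (0.73), *Stab1* (0.40), *Pros1* (0.26) and *Elmo1* (0.17) were also higher, with adjusted p between 0.0142 and 0.0472 by edgeR's test. With 1 library left out *Stab1*, *Pros1* and *Elmo1* lost their calls in 8 to 10 of 13 fits, with adjusted p up to 0.109, and the other 4 kept theirs in all. *Gas6*, a bridging ligand of these receptors, had a log2 fold change of -0.40 that did not pass (adjusted p = 0.0711, edgeR), except without fl/fl replicate 7 (-0.45, 0.0443).

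*Cd14*, a co-receptor for bacterial lipopolysaccharide (LPS), lies at chr18:36858120-36859851 (GRCm39, minus strand). It had 21.7, 27.0 and 62.6 CPM in the libraries labelled fl/fl and 31.6, 44.2 and 52.8 CPM in those labelled iADKO. The highest values of all, in fl/fl replicates 7 and 5, were in the group with the lower median. The log2 fold change of 0.33 ± 0.26 SE did not pass (adjusted p = 0.362 by edgeR's test), and neither did 0.54 without fl/fl replicate 7 (adjusted p = 0.0799). By edgeR's test 14.1% of all genes tested were higher. Of the 9 genes listed for CD14 and the LPS receptor, 2 were higher, near that share, with a median log2 fold change of 0.22. Both encode adaptors of Toll-like receptors, *Ticam1* (0.39, adjusted p = 0.00438, edgeR) and *Myd88* (0.29, adjusted p = 0.0361, edgeR), and *Ticam1* was higher in every library labelled iADKO than in any labelled fl/fl. The call of *Myd88* was lost in 9 of the 13 fits that left out 1 library (adjusted p up to 0.0732). *Tlr4*, the receptor itself, had 0.15 (adjusted p = 0.191, edgeR), and 0.22 without fl/fl replicate 5, which passed (0.00995). *Ly96*, *Tirap*, *Ticam2* and *Irak4* did not pass with all libraries either. Without fl/fl replicate 5 they did, at 0.36, 0.14, 0.75 and 0.28 (adjusted p = 0.0161, 0.0362, 0.000436 and 0.0194, edgeR). The count of this list therefore depends on that library, without which 39.7% of all genes tested were called in either direction. *Lbp*, which encodes the LPS-binding protein and was the most abundant of the list in CPM, had -0.33 (adjusted p = 0.0611, edgeR), and passed as lower without the same library (-0.39, 0.0092).

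*Lyz2* encodes the lysozyme of macrophages and neutrophils, an enzyme that cuts bacterial cell walls, and lies at chr10:117111557-117118346 (GRCm39, minus strand). It had 681, 962 and 3086 CPM in the libraries labelled fl/fl and 1559, 2302 and 2716 CPM in those labelled iADKO. Fl/fl replicate 5 was the highest of all 13 libraries and fl/fl replicate 7 lay above iADKO replicate 6, while the other 5 fl/fl libraries lay below every iADKO library. The log2 fold change of 0.72 ± 0.32 SE, larger than that of *Csf1r*, did not pass (adjusted p = 0.103 by edgeR's test). It did pass without fl/fl replicate 5 (1.06, adjusted p = 0.0022) and, with all libraries, by limma on the rlog values (0.68, adjusted p = 0.0383).

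*Lyz1* lies next to *Lyz2*, and the canonical transcripts share 95.8% of 1270 aligned bases, with identical stretches of up to 118 bases. How reads that fit both were counted is not given in the sources used here, so the split between them is uncertain. *Lyz1* had medians of 17.2 and 59.3 CPM and a log2 fold change of 0.81 that did not pass (adjusted p = 0.229, edgeR), so that neither lysozyme gene was called. Fl/fl replicate 5 had 109 CPM of *Lyz1*, and without it *Lyz1* passed (1.49, adjusted p = 0.00256). The log2 ratio of *Lyz2* to *Lyz1* was 5.54 ± 0.34 (SD, n = 7) and 5.31 ± 0.40 (SD, n = 6), with an adjusted p of 0.274 by the exact permutation test.

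Among transcription factors of macrophages, *Irf8* (log2 fold change 0.67, adjusted p = 0.00279, edgeR) and *Spi1* (0.88, adjusted p = 0.00569, edgeR) were higher in the libraries labelled iADKO. *Spi1* encodes PU.1, on which macrophage development depends. The related genes *Tfec* (0.64) and *Mitf* (0.47) also rose, with adjusted p of 0.0179 and 0.0173 by edgeR's test. *Nr1h3*, which encodes the liver X receptor alpha and is also expressed in adipocytes, fell by 0.31 on the log2 scale (adjusted p = 0.0111, edgeR). *Runx1* (0.47), *Maf* (0.19), *Zeb2* (0.14) and *Cebpb* (-0.028) did not pass, with adjusted p between 0.129 and 0.841, although *Runx1* did without fl/fl replicate 7 (0.70, adjusted p = 0.0108) and *Maf* without iADKO replicate 6 (0.28, adjusted p = 0.036).

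Of 10 other macrophage genes, 6 were higher and none was lower, with a median log2 fold change of 0.83. The lowest adjusted p were those of *Aif1*, which encodes IBA1 (1.02, adjusted p = 0.00315, edgeR), *Tyrobp*, the signalling adaptor DAP12 (0.93, adjusted p = 0.0162, edgeR), and *Ms4a7* (0.84, adjusted p = 0.0168, edgeR). *Lst1* (0.78), *Cd84* (0.95) and *Msr1*, a scavenger receptor (0.69), were also higher, with adjusted p up to 0.0468, but lost these calls in 5, 10 and 10 of the 13 fits that left out 1 library (adjusted p up to 0.0898). *Mpeg1* and *Ctss*, the most abundant of the list in CPM, had 0.83 and 0.85 but did not pass (adjusted p = 0.0777 and 0.0806, edgeR). Both were highest in fl/fl replicate 5, at 1009 and 534 CPM, and passed without it (1.23 and 1.20, adjusted p = 0.000745 and 0.00284). *Cx3cr1* (0.5, adjusted p = 0.425, edgeR) and *Siglec1* (0.4, 0.0694) did not pass either. *Cx3cr1* did without fl/fl replicate 5 (1.13, 0.00338), and *Siglec1* without fl/fl replicate 4 or 5 or iADKO replicate 6. Every gene of the list thus passed without fl/fl replicate 5. In that fit 39.7% of all genes tested were called in either direction, beside 30.5% with all libraries. The library left out had the highest sum of this list among fl/fl libraries, so its removal widens the difference by construction.

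**Figure D3:**
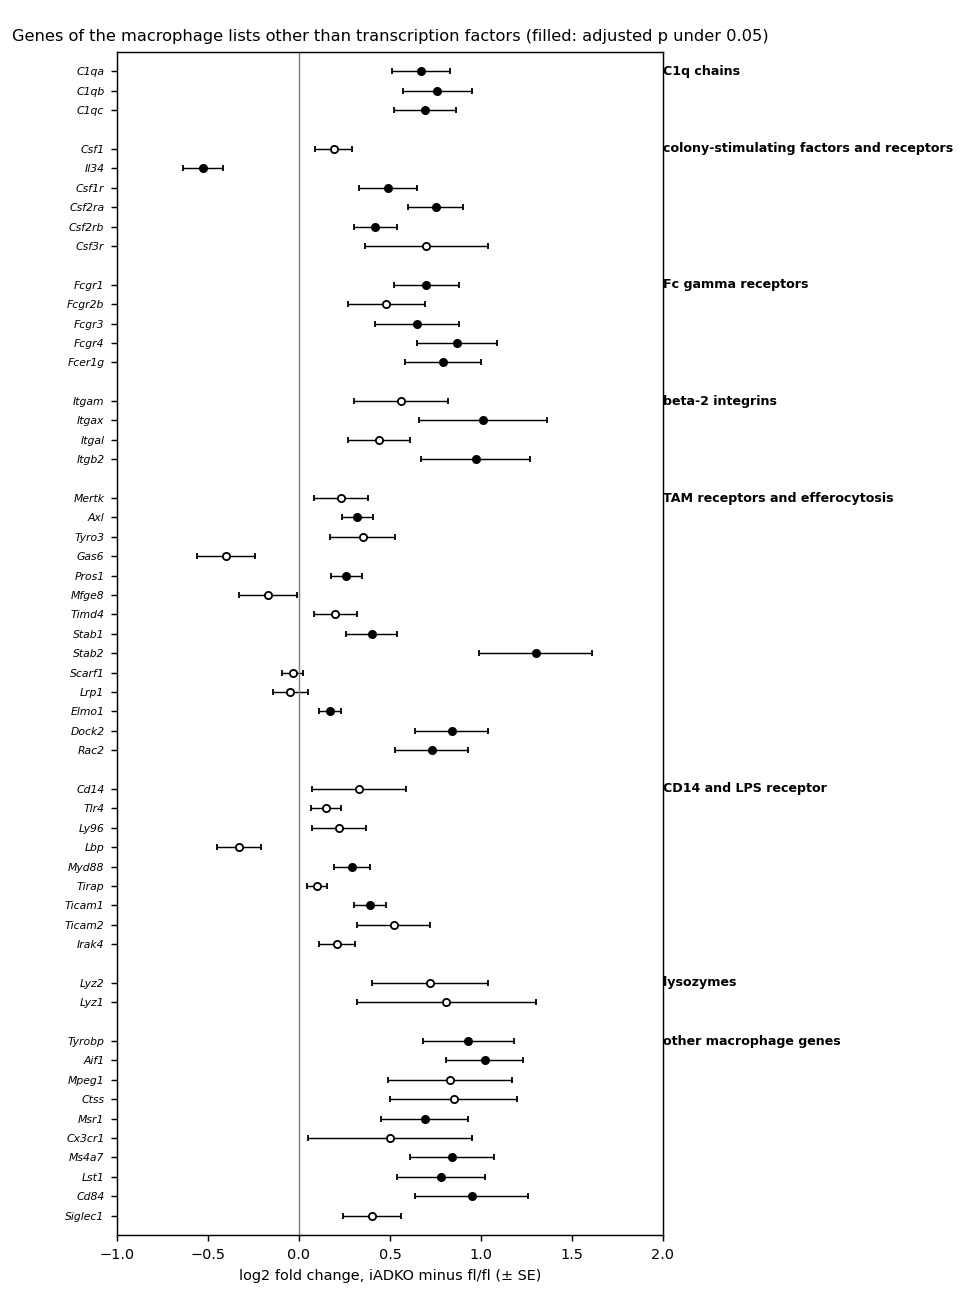
Log2 fold change (iADKO minus fl/fl) ± SE of each tested gene of the macrophage lists other than transcription factors, with filled points for adjusted p under 0.05 and open points for the rest. Points lie mostly to the right of 0, with *Il34* as the filled point to the left, and the 3 C1q chains lie close together between 0.67 and 0.76.

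Per kilobase of canonical transcript, *Lyz2* had the highest level of the 10 genes and the other C1q chains, with 454 ± 289 CPM per kb (SD, n = 7) in fl/fl and 746 ± 126 (SD, n = 6) in iADKO. *C1qa* followed, with 198 ± 52.5 and 315 ± 50.2 CPM per kb. *Cd68*, *C1qc* and *C1qb* came next, between 105 and 131 CPM per kb in fl/fl and between 178 and 224 in iADKO, with overlapping ranges. *C1qc* was above *C1qb* in every library, while the place of *Cd68* among them differed between libraries. *Csf1r* (64.3 ± 17.3 and 90.4 ± 16.0) and *Adgre1* (31.5 ± 9.90 and 55.6 ± 10.6) lay below them, with *Csf1r* the higher in every library. *Csf1*, *Cd14* and *Mertk* had means between 18.0 and 25.8 CPM per kb in fl/fl and between 21.2 and 29.5 in iADKO, with overlapping ranges. *Fcgr1* (5.27 ± 1.56 and 8.59 ± 1.67) and *Itgam* (5.17 ± 2.56 and 7.65 ± 1.28) were the lowest and also overlapped. With the length of all annotated exons in place of the canonical transcript, *C1qb* fell below *Csf1r*, at 42.4 and 52.9 CPM per kb in fl/fl, *Cd68* was above *C1qc* in both labels and *Cd14* above *Csf1*, so the places of these genes depend on which length is used.

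Pan-leukocyte genes were higher along with these genes, while adipocyte genes were lower. All 5 pan-leukocyte genes were higher, among them *Ptprc*, which encodes CD45 (log2 fold change 0.71, adjusted p = 0.00846, edgeR). Their summed level was 344, 398 and 762 CPM (lowest, median and highest) in fl/fl and 566, 785 and 896 CPM in iADKO, with fl/fl replicate 5 the highest of its group and iADKO replicate 6 the lowest, and *Laptm5* was the most abundant. All 8 adipocyte genes were lower, with a median log2 fold change of -0.84. Their sum was 14384, 18457 and 20639 CPM in fl/fl and 8695, 9699 and 14772 CPM in iADKO, with *Cfd* the most abundant. Here fl/fl replicate 5 was the lowest fl/fl library and iADKO replicate 6 the highest iADKO library, so the same libraries stood toward the other group in both lists. Leaving out 1 library at a time, 4 of the 5 and 7 of the 8 kept their calls in every fit, all but *Cd53* (adjusted p up to 0.074) and *Lep* (0.0522 without iADKO replicate 4). The part of these lists in the results above was not tested.

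Monocyte genes were higher in 4 of 6, and their sum was 124, 150 and 222 CPM in fl/fl and 179, 232 and 265 CPM in iADKO, with *Vcan* the most abundant in fl/fl and *Ccr2* in iADKO. *Ccr2* was higher in every library labelled iADKO than in any labelled fl/fl. Of 8 neutrophil genes, which share *Lyz2*, *Cd14* and *Itgam* expression with macrophages, 1 was higher, *Retnlg*. Of all genes tested 14.1% were higher, and 1 of 8 is near that share. The median log2 fold change of the 8 neutrophil genes was 0.96. Their sum varied widely, with 9.07, 83.7 and 234 CPM in fl/fl and 51.1, 201 and 306 CPM in iADKO, *S100a8* was the most abundant, and *Ly6g* was at 0 in at least 1 library. Fl/fl replicate 7, the highest in *Cd14*, was the highest fl/fl library in this sum. Of the 4 monocyte calls 2 held in every fit with 1 library left out, as did that of *Retnlg*. The part of these lists was not tested either.

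The counts that follow stand beside 14.1% of all genes tested that were higher by edgeR's test. Dendritic cell genes were higher in 4 of 7, with *Zbtb46* the most abundant. Their sums were 55.7, 60.8 and 82.0 CPM in fl/fl and 61.2, 67.8 and 70.8 CPM in iADKO. T cell genes were higher in 3 of 6 (17.1, 24.6 and 29.3 against 31.9, 33.3 and 37.0 CPM, *Cd4* the most abundant), and the sums did not overlap. B cell genes were higher in 2 of 6 (20.3, 34.1 and 57.0 against 36.6, 58.7 and 82.1 CPM, *Cd79a* the most abundant). Several of these genes, among them *Zbtb46* and *Cd4*, are also expressed by other cells. NK cell genes were higher in 3 of 4 (4.89, 6.59 and 9.44 against 9.53, 10.6 and 13.7 CPM, *Nkg7* the most abundant), and these sums did not overlap either. Mast cell genes were higher in 4 of 5 (53.0, 66.7 and 116 against 63.9, 83.6 and 105 CPM, *Kit* the most abundant). Eosinophil genes were higher in 3 of 3 tested (8.78 to 19.3 CPM, mean 13.5 ± 3.56 SD, against 16.0 to 28.2 CPM, mean 23.8 ± 4.54 SD, *Ccr3* the most abundant), and *Epx*, the fourth, was at 0 in at least 1 library and did not pass the filter. With 1 library left out, the calls that held in every fit were 2 of 4 for dendritic cells, 2 of 3 for T cells, 0 of 2 for B cells, 1 of 3 for NK cells, 4 of 4 for mast cells and 1 of 3 for eosinophils.

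Of the stromal and vascular genes, only *Cdh5* and *Kdr* passed the test, while 14.1% of all genes tested were higher and 16.3% lower. None of 6 progenitor and fibroblast genes was called (3035, 3915 and 5093 against 3081, 4770 and 5078 CPM, *Dcn* the most abundant). Of 5 endothelial genes 2 were lower, *Cdh5* and *Kdr* (664, 784 and 890 against 656, 691 and 775 CPM, *Pecam1* the most abundant). None of 4 mesothelial genes (272, 403 and 550 against 259, 497 and 642 CPM, *Upk3b* the most abundant) and none of 4 smooth muscle genes (388, 551 and 876 against 532, 813 and 1987 CPM, *Acta2* the most abundant in fl/fl and *Myh11* in iADKO) was called. The median log2 fold change of the smooth muscle genes was 0.8, beside 0.62 for the 10 macrophage genes. Without iADKO replicate 1, *Acta2* (0.75, adjusted p = 0.0469, edgeR), *Myh11* (1.14, 0.0333) and *Cnn1* (1.48, 0.0278) passed as higher. Without iADKO replicate 5, the library with the highest sum, log2 fold changes were between 0.3 and 0.78 and none passed. No gene of any marker list was at 0 in all 13 libraries.

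Of the log2 ratios of the 10 genes to *Ptprc*, 3 passed the test, and the genes were not tested against each other. The log2 ratio of *Cd68* to *Ptprc* was 0.28 ± 0.27 (SD, n = 7) in fl/fl and 0.69 ± 0.15 (SD, n = 6) in iADKO, a difference of 0.41 (adjusted p = 0.0466 over 10 ratios, exact two-sided permutation test). Those of *Csf1* and *Mertk* were lower by -0.57 and -0.51 (adjusted p = 0.0466 for each, exact permutation test), as levels that did not pass beside a *Ptprc* that rose. These 3 calls were marginal, since each was lost when any 1 library other than fl/fl replicate 5 or 7 was left out (11 of 13 tests), with adjusted p up to 0.0842. The other 7 ratios did not pass, with differences between -0.31 for *Cd14* (adjusted p = 0.0524, exact permutation test) and 0.14 for *Lyz2* (adjusted p = 0.507), and those of *Adgre1*, *Fcgr1*, *Itgam* and *C1qa* were between -0.088 and 0.092. That of *Csf1r*, -0.25, passed without fl/fl replicate 7 (-0.31, adjusted p = 0.0361, exact permutation test).

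Within labels, 8 of the 10 genes varied together, and *Csf1* and *Mertk* less so. After the mean of each label was subtracted from log2 CPM, the 36 pairs among the 9 genes other than *Csf1* had Pearson r between 0.411 and 0.971 over the 13 libraries, with a median of 0.821. Without fl/fl replicate 5 and iADKO replicate 6, r was between 0.084 and 0.956. The low values were those of *Mertk*, whose r with the other 8 was between 0.411 and 0.77, and between 0.084 and 0.479 without the same libraries, so that much of its relation with them rests on those libraries. The 28 pairs among the 8 genes other than *Csf1* and *Mertk* had r between 0.626 and 0.971, and between 0.498 and 0.956 without them. *Csf1* had r between 0.157 and 0.562 with the 9, with a median of 0.36, and between -0.112 and 0.371 without them. *Mertk* was set apart after these values were seen. *Ptprc* varied with the same 8 genes, with r between 0.738 and 0.968, and between 0.554 and 0.924 without fl/fl replicate 5 and iADKO replicate 6. The neutrophil gene *S100a8* had r of 0.739 with *Cd14*, 0.718 with *Itgam* and 0.708 with *Lyz2*, and 0.694, 0.721 and 0.69 without them. These values describe libraries that share 1 tissue and 1 scaling, and carry no test.

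Among the genes outside the lists whose variation within labels was most like the mean of the 9 genes, of 10795 candidates, were *Pirb* (r = 0.99, Spearman's rho 0.962), *Stac2* (0.982, 0.956), *Clec4a3* (0.982, 0.951) and *Tlr13* (0.98, 0.918). Without fl/fl replicate 5 and iADKO replicate 6, the libraries farthest from the median, r was between 0.95 and 0.975. Of these genes, *Tlr13* (log2 fold change 1.07), *Pirb* (0.78) and *Clec4a3* (0.75) were higher in the libraries labelled iADKO, with adjusted p between 0.0097 and 0.0243 by edgeR's test, and *Stac2* (0.69) did not pass (adjusted p = 0.122).

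The genes most like *Csf1* were others, namely *Llgl1* (r = 0.895, rho 0.874), *Spsb1* (0.885, 0.813), *Lats2* (0.881, 0.863), *Plekha2* (0.862, 0.89) and *Pygo2* (0.853, 0.879). Without fl/fl replicate 4 and iADKO replicate 2, the farthest libraries here, r was between 0.788 and 0.924. *Plekha2* (log2 fold change 0.22, adjusted p = 0.00969, edgeR) and *Pygo2* (0.16, adjusted p = 0.0275, edgeR) were higher, and the other 3 did not pass.

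Promoter sequences, 250 bases before to 50 after the annotated start (RefSeq, GRCm38.p6), were found for 6 of the 10 genes: *Cd68*, *Csf1*, *Fcgr1*, *Itgam*, *Lyz2* and *Mertk*. They were searched on both strands for letters like those bound by PU.1, whose gene *Spi1* was higher. The letters GAGGAA were in 3 of the 6 (*Cd68*, *Fcgr1* and *Itgam*) and in 28.3% of all 32851 promoters, and the longer GAGGAAGT, which contains them, in 0 of 6 and in 3.2% of all. Of the other C1q chains, *C1qb* held GAGGAA and *C1qc* held both. The AP-1 letters TGANTCA (7.81% of all) and the C/EBP letters TTGCNNAA (10.8% of all) were in *Cd68* alone. A match describes letters and not binding. Shown are the promoters with more than 1 match to GAGGAA, on the strand of the gene, with the matches on either strand in capitals; *Cd68* is at chr11:69666121-69666420 (minus strand) and *Itgam* at chr7:128062390-128062689 (plus strand).
Cd68: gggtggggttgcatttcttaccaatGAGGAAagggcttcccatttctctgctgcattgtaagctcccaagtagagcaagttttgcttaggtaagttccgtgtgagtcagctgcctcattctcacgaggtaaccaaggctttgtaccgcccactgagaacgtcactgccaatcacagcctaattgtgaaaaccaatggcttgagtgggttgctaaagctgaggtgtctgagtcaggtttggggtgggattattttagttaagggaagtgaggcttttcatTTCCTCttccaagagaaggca
Itgam: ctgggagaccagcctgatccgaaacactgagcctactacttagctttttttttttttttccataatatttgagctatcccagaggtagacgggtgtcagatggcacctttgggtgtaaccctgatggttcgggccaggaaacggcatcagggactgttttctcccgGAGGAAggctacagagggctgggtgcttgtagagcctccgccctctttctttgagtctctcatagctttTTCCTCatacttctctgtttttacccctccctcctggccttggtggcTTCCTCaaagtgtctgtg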

How the data were processed

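Whole pmWAT of 13 female mice, a different mouse per library, was compared between labels, so p-values measure the spread between mice. The authors deposited raw counts per Ensembl gene, without normalization, and log2 values made from them by DESeq2's regularized log (rlog). FastQC 0.12.1, STAR 2.7.11a and mm39 are named in the submitters' processing notes; the counting tool and annotation are not given in the sources used here. Symbols, lengths and coordinates came from GENCODE vM39 (33184 identifiers matched).

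In R 4.3.3, edgeR 4.0.16 (filterByExpr, TMM, robust quasi-likelihood test) was run on all counts, with Benjamini-Hochberg adjustment at 0.05 over 16753 genes. Log2 CPM used a prior count of 2. Log2 ratios were compared by exact two-sided permutation tests on the absolute difference, whose smallest p is 0.000583. Scripts were tested on simulated data. Alternatives used DESeq2 1.42.0, limma 3.58.1 and those named in the closing section.

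The genes and lists were chosen with earlier results of these data known. Genes named are the 10 members and *Lmna*, list genes past the threshold (the 3 lowest adjusted p first), and genes from the 5 most like the 9 members and the 5 most like *Csf1* whose log2 CPM averaged 3 or more. List genes that did not pass, and marker genes, were named after their values were seen. Of the genes these rules take, 2 are not reported here, nor is the count over the transcription factors.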

Additional observations from a re-analysis of the deposited data

Results flagged for a closer look

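Dixon's test was applied to log2 CPM in 24 groups (10 genes and the other C1q chains, in 2 labels). In these, 4 values lay farther from the rest of their group than the test allows at the 95% level. Chance gives this in about 1 of 20 groups. The values are printed here in CPM. In fl/fl replicate 5, *Adgre1* (177 CPM) and *Csf1r* (618 CPM) were above the other fl/fl libraries. In iADKO replicate 6, *Adgre1* (120 CPM) and *Fcgr1* (13.8 CPM) were below the other iADKO libraries. These genes vary together, so the 4 values are not independent. The cause was not tested.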

How the results depend on the processing

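The direction of the 10 genes' median log2 fold change held in all alternatives, at 0.54 to 0.77 with 1 library left out, 0.21 and 1.02 within the number series, and 0.81 by library size alone. Library size alone called 8673 genes (7397 higher and 1276 lower, beside 2367 and 2737) and 9 of the 10 genes. The number series as a block called 1986 genes and 0 of the 10, and leaving out fl/fl replicate 5 and iADKO replicate 6 called 7192 and 9. With 1 library left out, 3998 to 6604 genes and 4 to 7 of the 10 were called. DESeq2's Wald test and size factors called the same 5 of the 10. The differences within each number series gave no count of calls, since they were not tested.

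Same-numbered libraries correlated over 0.1 in 3 of 6 pairs (from -0.0647 to 0.253), and 2 of 6 iADKO libraries correlated best with their own number, which was not enough to take numbers as pairs of mice. The replicate block, without fl/fl replicate 7, called 4833 genes and 8 of the 10, with *Cd14* at 0.60 (adjusted p = 0.0475), *Itgam* at 0.76 (0.0382) and *Lyz2* at 1.03 (0.0246). Its exact sign-flip test gave -0.73 for *Il34* to *Csf1* (adjusted p = 0.0625), and, to *Ptprc*, 0.43 for *Cd68* (0.125), -0.64 for *Csf1* and -0.59 for *Mertk* (0.104 each); with 6 pairs it has few possible values.

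With 1 library left out, the differences in log2 ratio to *Ptprc* were 0.36 to 0.48 for *Cd68*, -0.67 to -0.50 for *Csf1*, -0.59 to -0.43 for *Mertk* and -0.31 to -0.21 for *Csf1r*, which passed without fl/fl replicate 7 (adjusted p = 0.0361), and that of *Csf1* to *Csf1r* was -0.41 to -0.24. Without fl/fl replicate 5 and iADKO replicate 6, *Csf1* to *Csf1r* was -0.47 (adjusted p = 0.00433) and *Mertk* to *Ptprc* -0.54 (0.0866). Doubling the smaller tail, an alternative chosen after seeing the data, brought *Cd14* to *Ptprc* (-0.31) to an adjusted p of 0.0466. The cause of these changes was not tested.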

Other observations

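Genes of mast cells and eosinophils were given above as counts and sums. *Cma1* (log2 fold change 0.90, adjusted p = 0.00135, edgeR) and *Mcpt4* (0.88, adjusted p = 0.00199), which encode mast cell proteases, were higher in the libraries labelled iADKO, as were *Cpa3* (0.67) and *Tpsb2* (0.64), and *Cma1* did not overlap between labels. *Kit*, the stem cell factor receptor of mast cells, had -0.59 and did not pass (adjusted p = 0.138), and had -0.22 (adjusted p = 0.182) without fl/fl replicate 4, whose 88.9 CPM was the highest of all libraries. *Prg2*, which encodes a granule protein of eosinophils, was also higher (1.45 on the log2 scale, adjusted p = 0.00341, edgeR). In both lists iADKO replicate 6, the lowest iADKO library in all 10 macrophage genes, had the highest sum of its group, at 105 and 28.2 CPM. These genes were named after their values were seen.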
